A study of Mus musculus with 6 samples.

Results

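Long intergenic noncoding RNAs (lincRNAs) are transcripts from between protein-coding genes that are not known to be translated. The members described here are the genes given the biotype lincRNA in the deposited annotation, other than H19 and Meg3, whose raw counts summed to at least 300 over the 6 libraries. They numbered 81 of 5559 annotated lincRNAs and of 54532 genes, and 1613 lincRNAs had any count. H19, with 46181 counts, and Meg3, with 26, were left out by the rule. The members were thus selected on their summed counts, and their levels below are a description.

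Wild-type primary mouse bone marrow mesenchymal stem cells (BMSCs) were kept for 7 days in osteogenic medium, with 0.1 μM nickel ions (Ni, as NiCl2) or without them (Con), and 3 cultures of each group were sequenced. Both groups received ascorbic acid at 50 μg/mL, β-glycerophosphate at 10 mM and dexamethasone, at 100 nM per the labels; the paper's methods give a different dexamethasone concentration. The series' design text calls the 3 cultures independent biological replicates, and no animals are named, so every p-value measures the spread between these cultures. The libraries held from 16101033 to 18642504 counts.

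LincRNAs act in several ways. Some scaffold nuclear bodies, some bind and occupy proteins or microRNAs, some are hosts whose introns or exons are cut into small nucleolar RNAs (snoRNAs) or microRNAs, and others influence the gene beside them. Many are transcribed at low levels and in few cell types. In bone marrow cultures, named members of the class are known both from stromal cells and from blood lineages.

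Several facts of the libraries bear on every value. All 11 stromal and osteoblast markers passed the filter on low counts, and so did all 11 macrophage markers, whose summed level lay between 24690 and 29940 CPM (counts scaled to a common library size by TMM) in the 6 libraries. Lymphoid and erythroid markers summed to under 1 CPM in every library, neutrophil markers to between 1.53 and 3.24 CPM and adipocyte markers to between 57.4 and 87.3 CPM. The stromal and osteoblast list summed to 11520, 12100 and 19050 CPM in Con replicates 1 to 3 and to 31110, 23660 and 30420 CPM in Ni replicates 1 to 3. Most of each sum was Col1a1, Col1a2 and Ibsp. Of the 11 markers, 7 were higher in Ni at an edgeR unadjusted p under 0.05 (7.59% of all genes). Only Cxcl12 was lower at that limit (5.83% of all genes). Pdgfra, Pdgfrb and Lepr did not reach it, so the sum does not stand for all stromal markers. Con replicate 3 lay nearer to the Ni mean than to the other controls for 67.6% of the 14624 genes tested, and for 56 of the 81 members (69.1%). The members whose calls turn on this library are given with and without it. In bulk RNA, fewer cells of a type and less RNA per cell cannot be told apart.

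The members together took a small part of each library. Their share of all counts was 0.268%, 0.257% and 0.234% in Con replicates 1 to 3. In the Ni libraries, in the same order, it was 0.198%, 0.241% and 0.235%. The lowest share was that of Ni replicate 1, and the other Ni libraries lay within the range of the controls. The mean was 0.253% ± 0.0173 (SD, n = 3) in Con and 0.225% ± 0.0235 (SD, n = 3) in Ni, a difference of -0.0281 percentage points (exact permutation test, two-sided, p = 0.3, where the smallest possible is 0.1). Without Ni replicate 1 the difference was -0.0146 percentage points. Of the 250204 counts on the members, 22.4% fell on the most abundant of them and 76.6% on the 10 most abundant. The members in turn carried 74.5% of all lincRNA counts.

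Levels between genes are compared here per kilobase of transcript, as FPKM. The median member had 2.71 FPKM, 16 members exceeded 10 FPKM and 13 were under 1 FPKM. Malat1 was highest by this measure (76.2 FPKM), then 2900097C17Rik (48.3 FPKM), which RefSeq names Norad, Gm36161 (46.6 FPKM), Gm13710 (32.8 FPKM), Gm26917 (26.7 FPKM) and Neat1 (24.7 FPKM). The lowest was Ftx, at 0.576 FPKM. At the limit of the rule, the members with the fewest counts were 2900076A07Rik (301), Gm17354 (304) and BC043934 (311), and the lincRNAs just outside were Gm26617 (299), Miat (298) and Gm16973 (290).

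**Figure D1:**
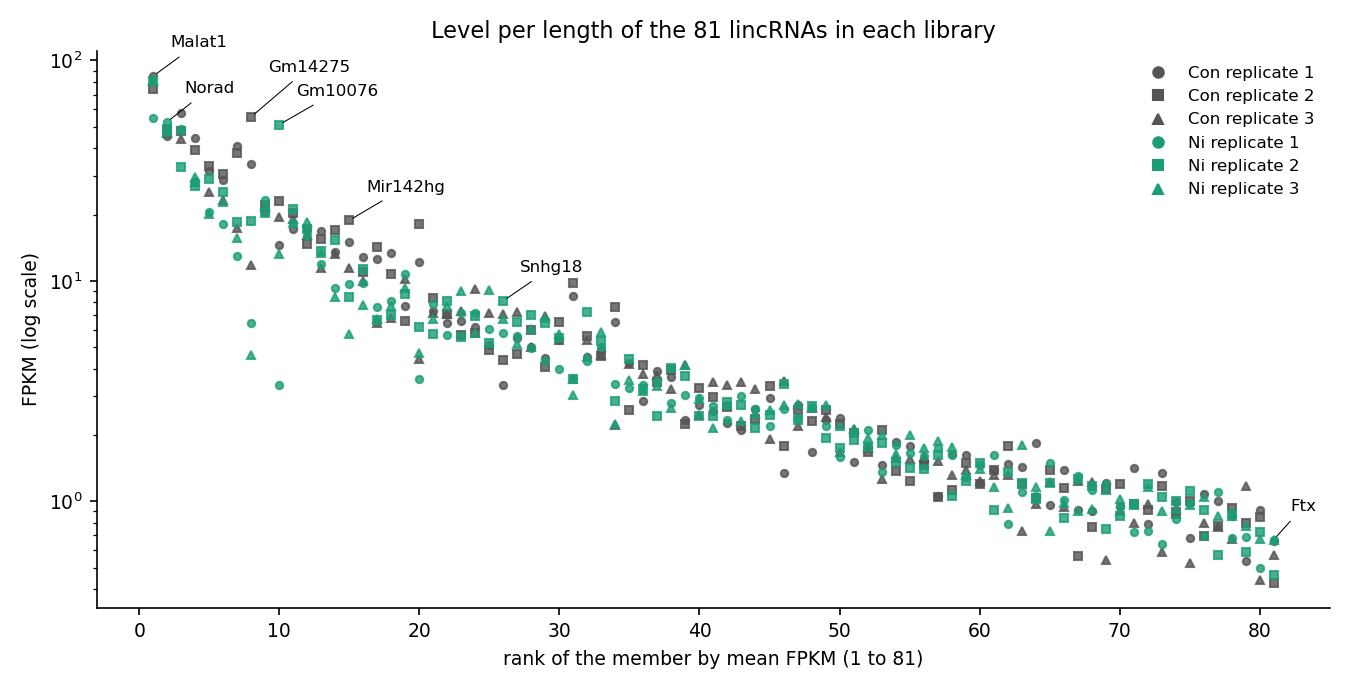
Each column is 1 of the 81 members, ordered by mean FPKM, and each point is its FPKM in 1 library on a log axis (grey, Con; green, Ni; the shape gives the replicate). Levels run from a mean of 76.2 FPKM for Malat1 to 0.576 FPKM for Ftx, and Gm14275 and Gm10076 spread over the widest ranges.

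The rule used the deposited lincRNA biotype, which itself bears on position relative to coding genes. It did not use the chromosome, base composition or RefSeq annotation of the members. Transcript length entered it indirectly, because raw counts rise with length. They lay on 20 chromosomes, 8 of them on chromosome 2, 8 on chromosome 13, 7 on chromosome 17 and 2 on the X. Their longest transcripts in GENCODE M21 had a median of 2263 bases and 45.9% GC, against 3501 bases and 49.5% for protein-coding genes with at least 300 counts, and 1318 bases and 47.2% for lincRNAs with fewer. The median member had 3 exons in its longest model, and 14 members had a single exon. Of 56 members matched to RefSeq, 47 are called lncRNA there, 7 protein-coding, 1 a pseudogene and 1 a transcribed pseudogene. The 7 include 1810058I24Rik, which is known to encode a small mitochondrial protein, Zfp469 and Tmem250-ps. The start regions of 42 members are in the RefSeq table, and 47.6% of them were rich in CpG (GC over 50% and a CpG ratio over 0.6), against 33.3% of the 32851 start regions in the table. The members were selected on counts and the table was not, so the 2 shares come from unlike sets.

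No member changed at an adjusted p under 0.05 between Ni and control (edgeR's quasi-likelihood test, Benjamini-Hochberg adjustment over 14624 genes), and no other gene did either (0 genes, 0.0%). The smallest adjusted p among the members was 0.295. At an unadjusted p under 0.05, 1 member was higher in Ni (1.23% of members, against 7.59% of all genes tested) and 10 were lower (12.3%, against 5.83%). DESeq2's Wald test called 2 members at an adjusted p under 0.05, Gm15675 and Gm17705, both lower in Ni (2.0% of all genes with an adjusted p). The median log2 fold change (Ni minus control) of the 81 members was -0.028, with 36 positive and 45 negative, and that of all genes tested was -0.010. For 43 members the estimate lay within 0.2 of zero on the log2 scale, and for 4 members it exceeded 1 in size. The 95% interval of the log2 fold change, from its standard error (SE), reached a median of 0.441 to either side. It reached from 0.184 for the best measured member to 1.69 for the worst. Changes within these widths could not be told from 0. The widths are not limits of detection after adjustment, since larger changes were not called either. Gm17705, at -1.10 (SE 0.33), had an edgeR adjusted p of 0.295.

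**Figure D2:**
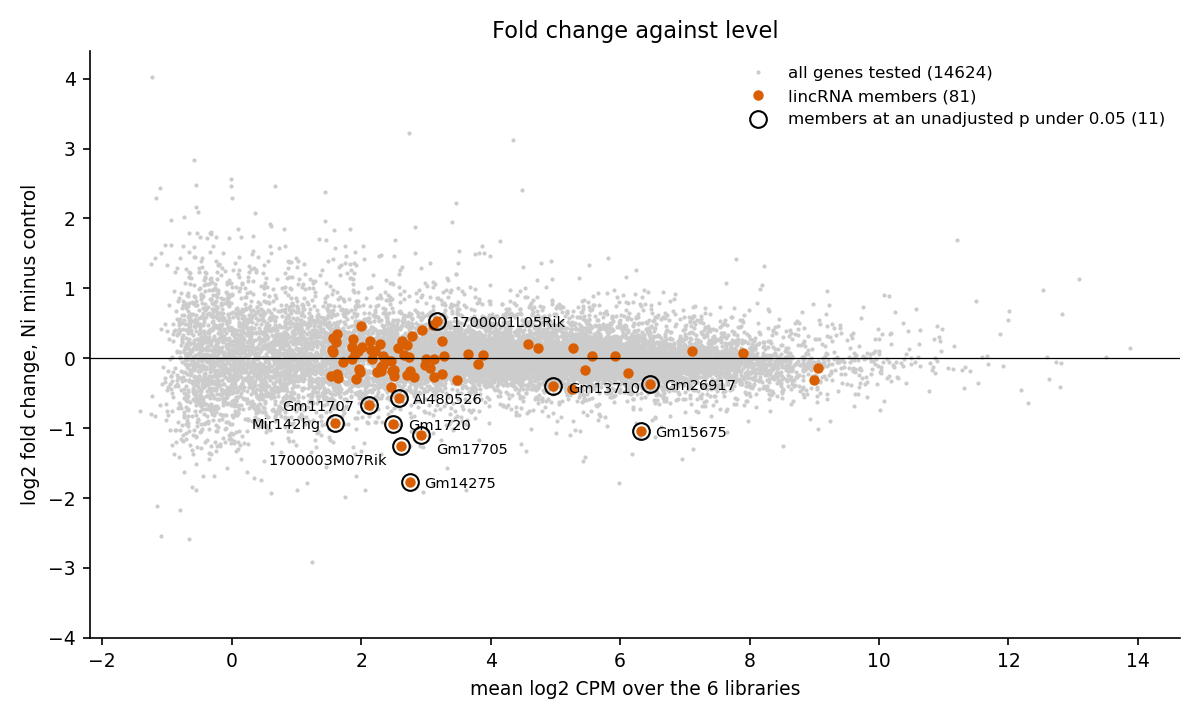
The horizontal axis gives the mean log2 CPM and the vertical axis the log2 fold change (Ni minus control) of the 14624 genes tested (grey) and of the 81 members (orange), with circles around the 11 members at an unadjusted p under 0.05. Of the circled members 10 lie below 0, down to -1.77 for Gm14275, and only 1700001L05Rik lies above.

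Malat1, Neat1 and Ftx were the members on the list of nuclear lincRNAs. Malat1 (chromosome 19 from 5795690 to 5802672, minus strand, GRCm38) builds up in nuclear speckles, and its neighbour Neat1 (chromosome 19 from 5824708 to 5845478, minus strand) is the scaffold of paraspeckles. The mature end of Malat1 carries no poly(A) tail: it is cut just after an A-rich tract that folds with U-rich stretches upstream. The stretch is shown because it stabilizes the RNA in place of a tail, and the libraries were made from what the labels call mRNA. It is bases 6586 to 6691 of the 6983-base GENCODE transcript, chr19:5795982-5796087, minus strand, with the run of 12 A and the runs of at least 4 T in capitals.
Malat1: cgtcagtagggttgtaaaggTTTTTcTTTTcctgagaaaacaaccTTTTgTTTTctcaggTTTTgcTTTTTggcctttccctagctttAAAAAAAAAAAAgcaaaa

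Malat1 had 597, 523 and 569 CPM in Con replicates 1 to 3 and 382, 570 and 574 CPM in Ni replicates 1 to 3. Ni replicate 1 was lowest, and the other Ni libraries lay within the controls' range. The log2 fold change was -0.15 (SE 0.16, edgeR adjusted p = 0.723), and 0.023 without Ni replicate 1. Neat1 had 597, 637 and 487 CPM in Con replicates 1 to 3 and 376, 532 and 476 CPM in Ni replicates 1 to 3. The groups overlapped, because Con replicate 3 lay below Ni replicate 2. Its log2 fold change was -0.31 (SE 0.15, edgeR adjusted p = 0.396), and -0.415 without Con replicate 3 (edgeR adjusted p = 0.0476). None of the 23 tested paraspeckle and speckle protein genes differed at an unadjusted p under 0.05, where 7.59% of all genes were higher and 5.83% lower, and their median log2 fold change was -0.083. The lowest p among them was that of Taf15, at a log2 fold change of -0.25. Of 22 tested genes of the nuclear RNA exosome and its adaptors, which degrade many noncoding RNAs, 1 was higher at an unadjusted p under 0.05 (Ncbp1, log2 fold change 0.21) and none lower. Ftx, an activator of Xist in the X inactivation centre, had from 3.28 to 5.10 CPM with overlapping groups and a log2 fold change of 0.11 (SE 0.25).

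Norad (2900097C17Rik, chromosome 2 from 156388065 to 156392979, minus strand) is a cytoplasmic RNA that binds Pumilio proteins, repressors of messenger RNAs. Its single-exon transcript of 4915 bases held 11 Pumilio elements (TGTA, then any base, then ATA, on the transcript's strand), or 2.24 per kilobase. This was the highest number and the highest density among the members, of which 24 (29.6%) held at least 1 element, against 32.4% of 11277 protein-coding transcripts. Neat1, next by number, held 4 in 20771 bases. The 300 bases of Norad with the most elements show their spacing (bases 1332 to 1631, chr2:156391349-156391648, minus strand, 3 elements in capitals).
Norad: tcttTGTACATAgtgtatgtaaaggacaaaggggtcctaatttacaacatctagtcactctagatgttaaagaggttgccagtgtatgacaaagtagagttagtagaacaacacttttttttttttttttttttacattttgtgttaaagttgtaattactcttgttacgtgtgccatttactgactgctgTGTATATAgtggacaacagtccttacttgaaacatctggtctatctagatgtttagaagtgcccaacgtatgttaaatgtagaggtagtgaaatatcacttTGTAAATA

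Norad was also among the steadiest members. It had 225, 239 and 233 CPM in Con replicates 1 to 3 and 260, 243 and 235 CPM in Ni replicates 1 to 3, so that its highest library was 1.15-fold its lowest. The groups overlapped, and the log2 fold change was 0.08 (SE 0.09, edgeR adjusted p = 0.752).

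Cyrano (1700020I14Rik, Oip5os1 in RefSeq, chromosome 2 from 119594297 to 119607502, plus strand) is known for a site that pairs with the microRNA miR-7 at both ends and directs its destruction. Its 8300-base transcript held 2 matches to bases 2 to 8 of miR-7. Upstream of the match at bases 2952 to 2958, a run of 13 bases paired with the rest of miR-7, and upstream of the other match the longest such run was 3. The site is shown with miR-7, both 5′ to 3′, because it is the element the RNA is known for (bases 2930 to 2959, chr2:119602132-119602161, plus strand). Capitals mark the paired runs in Cyrano and the seed, bases 2 to 8, in miR-7.
Cyrano: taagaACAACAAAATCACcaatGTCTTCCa
miR-7a-5p: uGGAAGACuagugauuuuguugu

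Cyrano had 144, 123 and 135 CPM in Con replicates 1 to 3 and 133, 145 and 155 CPM in Ni replicates 1 to 3. The groups overlapped, with a log2 fold change of 0.10 (SE 0.10, edgeR adjusted p = 0.705). miR-7 itself was not measured in these libraries.

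The microRNA hosts Mir17hg and Mir142hg are the members that carry the best known blood and growth microRNAs. Mir17hg (chromosome 14 from 115042879 to 115046727, plus strand) is the precursor of a cluster of 6 microRNAs that promotes proliferation. Mir142hg (chromosome 11 from 87755577 to 87757270, plus strand) gives miR-142, a microRNA of blood cells. Ftx holds Mir421 and Mir374b, and 6720427I07Rik, which is outside the rule for named members, holds Mirlet7d. The mature RNAs, from RefSeq on GRCm38.p6, are given with the seed (bases 2 to 8) in capitals, since the seed decides which messenger RNAs are bound.
miR-17-5p: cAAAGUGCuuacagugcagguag
miR-20a-5p: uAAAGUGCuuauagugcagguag
miR-18a-5p: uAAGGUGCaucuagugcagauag
miR-19a-3p: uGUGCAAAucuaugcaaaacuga
miR-19b-3p: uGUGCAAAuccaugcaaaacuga
miR-92a-3p: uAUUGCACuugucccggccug
miR-142a-3p: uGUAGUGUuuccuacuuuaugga
miR-142a-5p: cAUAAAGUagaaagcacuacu
miR-374b-5p: aUAUAAUAcaaccugcuaagug
let-7d-5p: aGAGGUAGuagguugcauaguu
miR-17-5p and miR-20a-5p share a seed, as do miR-19a-3p and miR-19b-3p, and each of the other 6 shown has a seed of its own.

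Mir142hg was lower in every Ni library than in every control. It had 4.04, 5.10 and 3.12 CPM in Con replicates 1 to 3 and 2.61, 2.30 and 1.55 CPM in Ni replicates 1 to 3. The log2 fold change was -0.92 (SE 0.30, edgeR adjusted p = 0.306), from counts of 28 to 81 per library, and between -1.09 and -0.733 when single libraries were left out. The nearest coding start was that of Tspoap1, at 4964 bases on the same strand, which is expressed at a low level and had a log2 fold change of -0.77 (SE 0.42). Mir17hg had 4.92, 4.09 and 3.36 CPM in Con replicates 1 to 3 and 3.58, 2.99 and 3.48 CPM in Ni replicates 1 to 3. Its groups overlapped, with a log2 fold change of -0.30 (SE 0.24, edgeR adjusted p = 0.611). The mature microRNAs were not measured, and the level of a host need not follow them.

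The snoRNA hosts Snhg6, Snhg12, Snhg18, Snhg20 and Epb41l4aos are RNAs named as hosts of snoRNAs, most of which guide the modification of ribosomal RNA. Snhg20 held no annotated snoRNA, but the scaRNA Gm26083, of a class that guides modification of spliceosomal RNAs, and Mir6516. Snhg18, host of Snord123, begins 148 bases from Sema5a on the opposite strand. It had 5.03, 6.55 and 10.6 CPM in Con replicates 1 to 3 and 8.63, 12.2 and 10.1 CPM in Ni replicates 1 to 3. Con replicate 3 stood among the Ni libraries. The log2 fold change was 0.48 (SE 0.27, edgeR adjusted p = 0.456), and 0.837 without Con replicate 3 (edgeR adjusted p = 0.0209). Sema5a, a semaphorin, had a log2 fold change of -0.16 (SE 0.17), the opposite sign.

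Epb41l4aos had from 3.65 to 7.37 CPM and a log2 fold change of -0.40 (SE 0.26, edgeR adjusted p = 0.517), which was -0.718 without Ni replicate 2 and -0.243 without Ni replicate 3. Snhg12, which holds Snora16a, Snora44, Snora61 and Snord99, had -0.14 (SE 0.18), Snhg6 had -0.09 (SE 0.21) and Snhg20 had 0.05 (SE 0.21). The groups overlapped for all 5 hosts, and no common direction was seen. Another 13 genes on the list of snoRNA hosts, Gas5 among them, carry other biotypes in the annotation and are not members.

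Other named members with known roles showed small differences. Pvt1 (chromosome 15 from 62037986 to 62378096, plus strand), downstream of the growth regulator Myc, had 8.52, 8.44 and 8.76 CPM in Con replicates 1 to 3 and 10.3, 10.5 and 9.89 CPM in Ni replicates 1 to 3. Every Ni library lay above every control, at a log2 fold change of 0.25 (SE 0.14, edgeR adjusted p = 0.464). Myc, whose start is 52595 bases away, had a log2 fold change of -0.03 (SE 0.11). Morrbid (Gm14005), known to prolong the life of myeloid cells, had 2.19, 3.28 and 4.799 CPM in Con replicates 1 to 3 and 2.82, 2.42 and 3.15 CPM in Ni replicates 1 to 3. Its groups overlapped, with a log2 fold change of -0.29 (SE 0.31). Bvht, described in heart development, had a log2 fold change of 0.25 (SE 0.27).

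**Figure D3:**
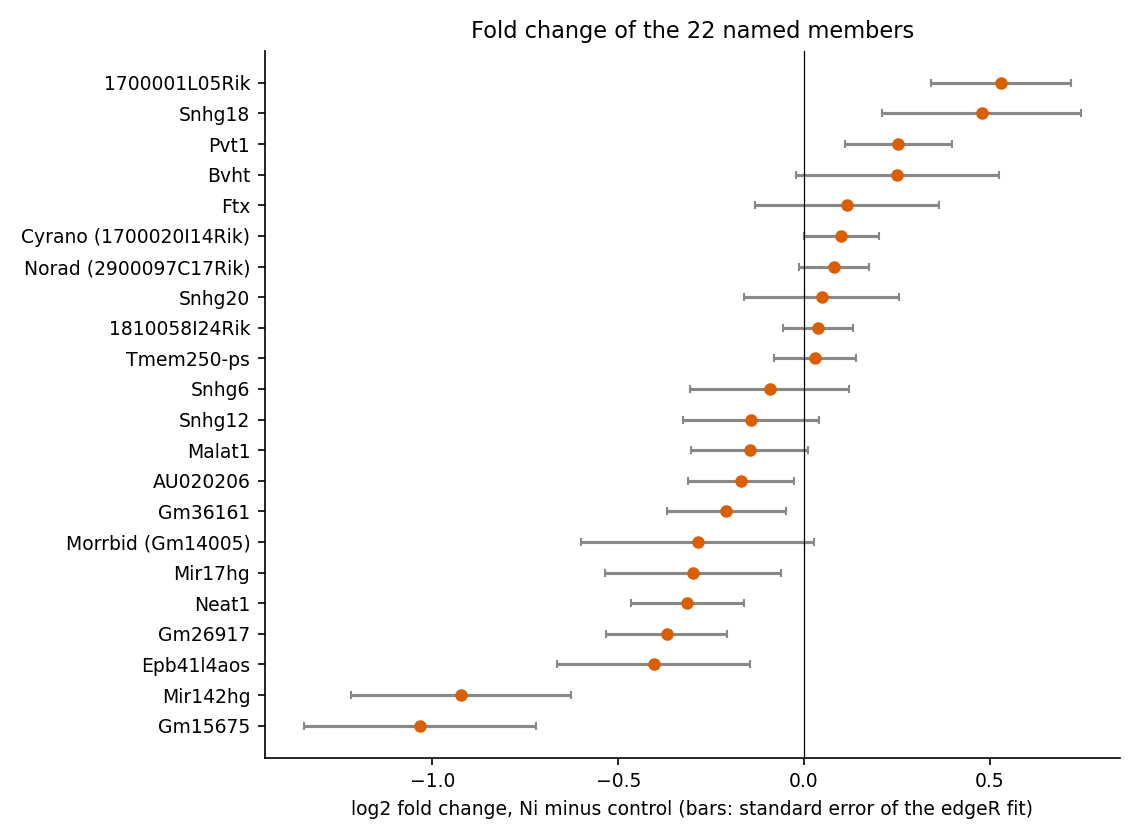
Points give the log2 fold change (Ni minus control) of the 22 members named by rule and bars its standard error from edgeR, with 3 libraries a group. Estimates run from -1.03 for Gm15675 to 0.53 for 1700001L05Rik, and the 4 most abundant (Malat1, Neat1, Norad and Cyrano) lie between -0.31 and 0.10.

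Few members had groups that did not overlap. Every Ni library lay above every control for 4 members (1700001L05Rik, Dubr, Pvt1 and Gm1976), where 7.97% of all genes tested did so. Every Ni library lay below every control for 2 members (Mir142hg and E430024I08Rik), where 6.71% of all genes did so. Dubr, E430024I08Rik and Gm1976 were named after their values had been seen. Dubr, known from muscle differentiation, had from 21.6 to 22.9 CPM in Con and from 23.5 to 27.6 CPM in Ni (log2 fold change 0.20, SE 0.11).

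1700001L05Rik (chromosome 15 from 83353847 to 83367282, minus strand) was the only member higher in Ni at an unadjusted p under 0.05. It had 6.50, 6.42 and 9.42 CPM in Con replicates 1 to 3 and 10.7, 10.1 and 11.5 CPM in Ni replicates 1 to 3. Con replicate 3 was again nearest to the Ni libraries. The log2 fold change was 0.53 (SE 0.19, edgeR adjusted p = 0.323), and 0.738 without Con replicate 3 (edgeR adjusted p = 0.0134). The coding gene with the nearest start, Arfgap3, a regulator of Golgi traffic 17035 bases away on the same strand, had a log2 fold change of 0.40 (SE 0.13).

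The 10 members lower at an unadjusted p under 0.05 shared a pattern over the libraries. Apart from those already named by rule (Gm15675, Gm26917 and Mir142hg), they were singled out after their values had been seen. In all 10, Con replicate 3 lay below Con replicates 1 and 2. In 8 it lay nearer to the Ni mean than to the other controls, the exceptions being Mir142hg and AI480526. Con replicate 3 lay nearer to the Ni mean for 67.6% of all genes tested and 69.1% of all members too. The 10 were picked by their p from these same values. Gm14275 (chromosome 2 from 172288133 to 172290520, plus strand) had 14.7, 24.1 and 5.10 CPM in Con replicates 1 to 3 and 2.77, 8.12 and 1.99 CPM in Ni replicates 1 to 3. Its log2 fold change was -1.77 (SE 0.72), the largest in size of any member. 1700003M07Rik had 10.7, 15.9 and 3.90 CPM in Con replicates 1 to 3 and 3.15, 5.47 and 4.14 CPM in Ni replicates 1 to 3, a log2 fold change of -1.26 (SE 0.47). In both, the level in Con replicates 1 and 2 stood above that in the other 4 libraries.

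Gm17705 (chromosome 17 from 35165119 to 35167186, plus strand) had 13.4, 15.3 and 5.64 CPM in Con replicates 1 to 3 and 5.65, 5.64 and 4.75 CPM in Ni replicates 1 to 3. Its log2 fold change was -1.10 (SE 0.33, edgeR adjusted p = 0.295). It starts 222 bases from Prrc2a on the opposite strand, which had 404, 445 and 361 CPM in Con replicates 1 to 3 and 339, 452 and 337 CPM in Ni replicates 1 to 3, with no such drop in Con replicate 3. Gm1720, on the X chromosome, had 9.89, 11.5 and 3.36 CPM in Con replicates 1 to 3 and 5.16, 4.32 and 3.37 CPM in Ni replicates 1 to 3, a log2 fold change of -0.94 (SE 0.41). The others were Gm11707 (log2 fold change -0.66, SE 0.29), AI480526 (-0.57, SE 0.24) and Gm13710 (-0.40, SE 0.16). AI480526 shares 66.6% of its exon bases with lincRNA genes on the opposite strand, so that its counts depend on how shared bases were treated.

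**Figure D4:**
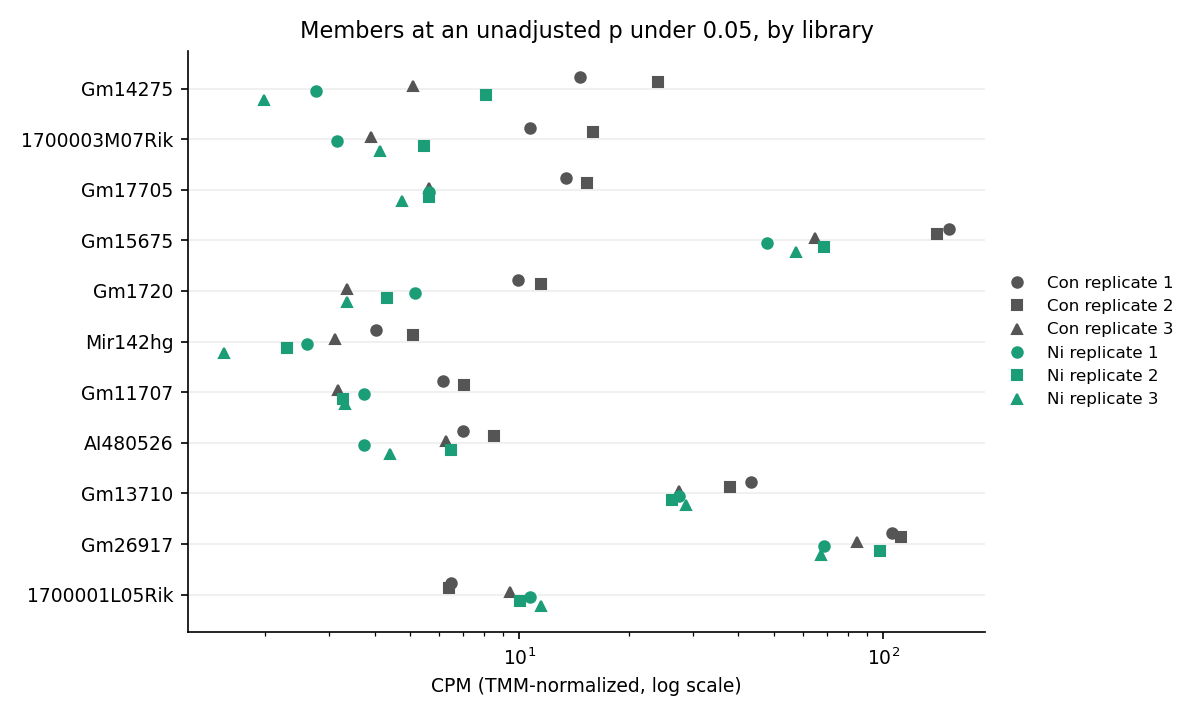
CPM (log axis) of the 11 members at an unadjusted p under 0.05 in each library, with Con in grey, Ni in green and the shape giving the replicate. In most rows Con replicates 1 and 2 stand to the right while Con replicate 3 lies among the Ni libraries, as for Gm17705 at 5.64 CPM against 4.75 to 5.65 CPM in Ni.

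With Con replicate 3 left out, the counts of calls were different. At an adjusted p under 0.05 (edgeR), 9 members were then lower (6.68% of all genes tested were called lower) and 3 higher (8.94% of all genes called higher). The lower members were Gm15675, Gm17705, 1700003M07Rik, Gm1720, Gm44751, Gm13710, Gm11707, Mir142hg and Neat1, with log2 fold changes from -1.64 for 1700003M07Rik to -0.415 for Neat1. The estimate was -1.32 for Gm15675, -1.42 for Gm17705, -1.31 for Gm1720 and -1.08 for Mir142hg. It was -0.933 for Gm11707, -0.657 for Gm44751 and -0.564 for Gm13710. The higher ones were 1700001L05Rik (0.738), Zfp469 (0.907) and Snhg18 (0.837). No member was called with any other library left out. With no filter on low counts 4 members were called (3.97% of all genes), and with the replicate number as a block 1 was (2.15%).

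Among markers of other cells, Acp5, Pecam1, Adgre1 and Itgam were among those with the pattern of these members over the libraries. Most others did not have it. The osteoclast list (7 genes) summed to 1136, 1338 and 657 CPM in Con replicates 1 to 3 and to 671, 686 and 610 CPM in Ni replicates 1 to 3. Most of this sum was Acp5, a phosphatase that macrophages also make, with 1013, 1190 and 417 CPM in Con replicates 1 to 3 and from 415 to 506 CPM in Ni. Of the 4 tested genes of the list, Acp5 and Mmp9 were lower in Ni at an unadjusted p under 0.05, but Mmp9 was highest in Con replicate 3. The other 2 had positive log2 fold changes, 0.62 for Ctsk (SE 0.30) and 0.24 for Atp6v0d2 (SE 0.50). The defining genes Dcstamp, Ocstamp and Calcr were at or near 0 CPM in every library. The macrophage sum was highest in Con replicate 3, and so was its largest gene, Lyz2 (10330, 9616 and 15100 CPM in Con replicates 1 to 3). Mrc1, Cd68, Csf1r and Fcgr1 were also highest in that library. Adgre1 instead had 3729, 3781 and 2553 CPM in Con replicates 1 to 3 and from 2342 to 2793 CPM in Ni (log2 fold change -0.35, SE 0.17). Of the 11 macrophage genes, 1 was lower at an unadjusted p under 0.05, Itgam. It had 363, 369 and 301 CPM in Con replicates 1 to 3 and from 230 to 296 CPM in Ni. Endothelial markers (5 genes) summed to between 43.7 and 72.2 CPM in Con and between 41.1 and 46.1 CPM in Ni, mostly from Pecam1, which had 46.7, 54.2 and 26.6 CPM in Con replicates 1 to 3 and from 23.5 to 32.4 CPM in Ni. Of the others, Cdh5 and Tek had negative log2 fold changes and Kdr (0.09) and Emcn (0.58) positive ones, none at an unadjusted p under 0.05. The part of other cells in the lower lincRNA levels was not tested.

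The start regions of 4 of these 11 members are in the RefSeq table (GRCm38.p6, 250 bases before to 50 after the start). They are shown because 3 of the 4 share the pattern over the libraries. Both strands were searched for GAGGAA (ETS factors), TGTGGT (RUNX factors), TGCACNC (the metal response factor), ACGTG (hypoxia-inducible factors), TGANTCA (AP-1) and CCAAT, and matches are in capitals. TGTGGT, the letters read by the bone factor Runx2 and by its blood relative Runx1, was found in all 3 lower members, 2 times in Gm13710, 2 times in Gm1720 and 1 time in Gm14275, and in 16.8% of the 32851 start regions. Over the 42 member start regions it was in 7 (16.7%), the same share as in the whole table to within 1 percentage point, and the 3 were picked by their p. It was not found in 1700001L05Rik, where the palindrome CACGTG occurs 2 times and so gives 4 ACGTG matches over both strands. TGCACNC was in none of the 4, in 4 of the 42 member start regions and in 12.6% of all. In Gm1720 the ACGTG and GAGGAA matches overlap. A match of letters is not evidence of binding. The regions are chr2:84506824-84507123 (minus strand) for Gm13710, chrX:166661775-166662074 (plus) for Gm1720, chr2:172287990-172288289 (plus) for Gm14275 and chr15:83367248-83367547 (minus) for 1700001L05Rik. That of Gm13710 is at the RefSeq start, inside the deposited gene (chromosome 2 from 84500760 to 84531322, minus strand) and not at the start of that gene.
Gm13710: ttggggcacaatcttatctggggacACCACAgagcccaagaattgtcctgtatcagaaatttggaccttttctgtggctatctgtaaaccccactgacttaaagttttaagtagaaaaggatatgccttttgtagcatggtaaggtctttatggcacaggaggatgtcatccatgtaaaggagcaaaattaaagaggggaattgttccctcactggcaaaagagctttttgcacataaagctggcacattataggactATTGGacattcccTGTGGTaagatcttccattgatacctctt
Gm1720: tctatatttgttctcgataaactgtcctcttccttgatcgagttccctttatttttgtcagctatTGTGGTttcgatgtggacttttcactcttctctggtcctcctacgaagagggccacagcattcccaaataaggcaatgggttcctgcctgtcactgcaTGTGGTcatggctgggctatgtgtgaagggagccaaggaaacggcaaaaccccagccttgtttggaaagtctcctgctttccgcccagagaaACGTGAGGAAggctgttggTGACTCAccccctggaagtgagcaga
Gm14275: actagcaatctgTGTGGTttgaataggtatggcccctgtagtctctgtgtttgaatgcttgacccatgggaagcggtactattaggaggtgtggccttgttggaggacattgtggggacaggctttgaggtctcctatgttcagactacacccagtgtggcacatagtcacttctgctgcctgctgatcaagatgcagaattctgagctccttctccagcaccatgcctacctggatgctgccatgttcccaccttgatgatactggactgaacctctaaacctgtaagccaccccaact
1700001L05Rik: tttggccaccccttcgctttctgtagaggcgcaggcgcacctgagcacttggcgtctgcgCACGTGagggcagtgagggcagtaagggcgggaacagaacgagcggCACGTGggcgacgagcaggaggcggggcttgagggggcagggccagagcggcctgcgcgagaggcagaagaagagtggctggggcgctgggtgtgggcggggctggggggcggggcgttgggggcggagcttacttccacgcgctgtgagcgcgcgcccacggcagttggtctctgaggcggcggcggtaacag

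Some members lie directly behind a coding gene on the same strand, where reads running past the end of that gene could be counted on the lincRNA. Of the 81, 15 begin within 5 kb of such a gene. Gm15675 (chromosome 1 from 130429781 to 130437191, minus strand) begins 1836 bases past Cd55, which encodes a complement inhibitor. It had 151, 141 and 64.8 CPM in Con replicates 1 to 3 and 47.9, 68.9 and 57.6 CPM in Ni replicates 1 to 3, a log2 fold change of -1.03 (SE 0.31, edgeR adjusted p = 0.308). Cd55 had 379, 342 and 208 CPM in Con replicates 1 to 3 and 187, 204 and 194 CPM in Ni replicates 1 to 3, a log2 fold change of -0.67 (SE 0.20, edgeR adjusted p = 0.293). Both were high in the same 2 libraries. Of the exon bases of Gm15675, 29.5% are shared with the antisense gene Gm15674 on the opposite strand.

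Gm44751, like Gm47675 and Gm28875 singled out after its values had been seen, begins 590 bases past Ctsc, which encodes the lysosomal protease cathepsin C. Gm44751 had 59.1, 47.3 and 30.1 CPM in Con replicates 1 to 3 and 35.7, 31.2 and 34.0 CPM in Ni replicates 1 to 3. Ctsc had 903, 891 and 566 CPM in Con replicates 1 to 3 and 581, 567 and 565 CPM in Ni replicates 1 to 3. Their log2 fold changes were -0.44 (SE 0.21) and -0.46 (SE 0.17), and again Con replicates 1 and 2 were high. Gm47675, behind the macrophage transglutaminase gene F13a1, and F13a1 itself had log2 fold changes of 0.23 and 0.35. The part of read-through in these pairs was not tested, and the library kit named in the labels does not keep the strand of the RNA.

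Start sites on opposite strands within 1 kb of each other often share a promoter, and 10 members had such a partner. In 5 of these 10 pairs the member and the coding gene had the same sign. Gm17501 and 2010320M18Rik are examples chosen after their values had been seen. Gm17501 begins 331 bases from Cyr61, a matricellular protein gene, and the pair had log2 fold changes of 0.31 (SE 0.26) and 0.16 (SE 0.12). 2010320M18Rik begins 102 bases from Pik3r2, and had -0.19 against 0.23 for the coding gene. Over all 65 members whose nearest coding gene was tested, 40 pairs (61.5%) had the same sign. This share is a description only, because the pairs are not independent and some members have the same neighbour. The share for neighbouring genes over the whole table was not computed. Pearson's r between the fold changes was 0.50 and Spearman's rho 0.47 over these 65 pairs, which share the same 6 libraries. For the 14 tested pairs behind a coding gene r was 0.68, and for the 10 opposite-strand pairs 0.21.

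**Figure D5:**
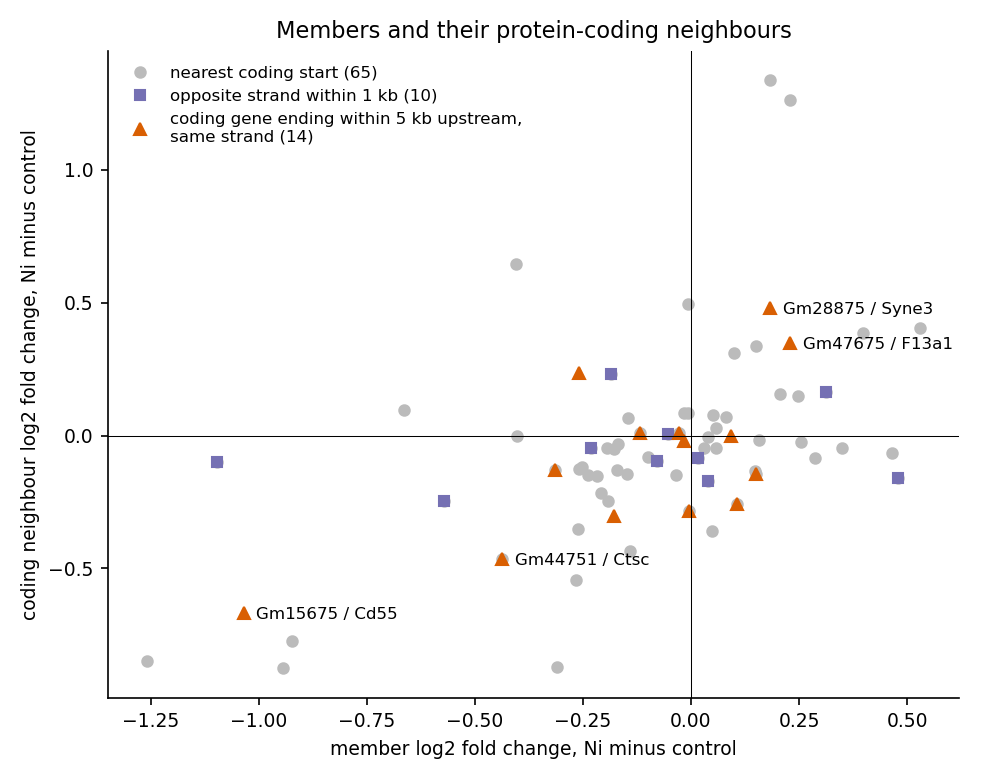
Each point is a member with a protein-coding neighbour, placed by the log2 fold change (Ni minus control) of the member on the horizontal axis and of the neighbour on the vertical axis, with colours for the 3 kinds of neighbour. The pairs behind a coding gene reach from Gm15675 with Cd55 (-1.03 and -0.67) to Gm28875 with Syne3 (0.18 and 0.48).

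Other abundant members need care for their position or kind. Gm26917 (chromosome 17 from 39843013 to 39846341, plus strand) lies 12 bases from the annotated ribosomal RNA gene CT010467.1. It had 106, 112 and 84.8 CPM in Con replicates 1 to 3 and 68.7, 98.0 and 67.2 CPM in Ni replicates 1 to 3, a log2 fold change of -0.37 (SE 0.16, edgeR adjusted p = 0.371). CT010467.1 had 1183, 888 and 928 CPM in Con replicates 1 to 3 and 854, 947 and 904 CPM in Ni replicates 1 to 3. Both were highest in replicate 2 within Ni, but in Con replicate 2 Gm26917 was at its highest and CT010467.1 at its lowest of the controls. The part of ribosomal RNA carry-over in the counts of Gm26917 was not tested. Gm10076, a pseudogene in RefSeq named after its values had been seen, varied most, from 24 counts in Ni replicate 1 to 345 in Ni replicate 2 (1.30 and 19.9 CPM), while its controls lay between 5.63 and 8.88 CPM. A pseudogene can take reads from its parent gene, so this value is uncertain.

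Among the remaining abundant members, Gm36161 had from 67.0 to 87.9 CPM in Con and from 50.1 to 74.0 CPM in Ni (log2 fold change -0.21, SE 0.16), and AU020206 from 36.8 to 54.2 CPM and from 38.1 to 44.1 CPM (-0.17, SE 0.14). Of the members that RefSeq calls protein-coding, 1810058I24Rik had from 57.4 to 62.0 CPM in Con and from 57.4 to 65.3 CPM in Ni (log2 fold change 0.04, SE 0.09), the narrowest range of all 81. Tmem250-ps had a log2 fold change of 0.03 (SE 0.11). Zfp469, named after its values had been seen, had 4.15, 5.54 and 10.9 CPM in Con replicates 1 to 3 and 8.09, 10.6 and 8.45 CPM in Ni replicates 1 to 3 (log2 fold change 0.40, SE 0.32).

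Both the size of the fold changes and the spread within groups were larger for the members, which had lower counts, than for the table at large. The median size of the log2 fold change was 0.186, against 0.139 for all genes with at least 300 counts and 0.135 for protein-coding ones, and the median SD within groups was 0.266 against 0.164 and 0.161 on the log2 scale. The median level was 6.31 CPM for members and 31.7 CPM for all genes with at least 300 counts. Antisense genes with at least 300 counts had a median size of 0.274 and an SD of 0.303, and processed transcripts 0.224 and 0.239. At an unadjusted p under 0.05, 12.5% of 48 antisense genes and 18.3% of 60 processed transcripts were lower in Ni, beside 12.3% of the members. The share was smaller, 8.66%, for 277 processed pseudogenes and 7.41% for 27 genes of the biotype TEC, all with at least 300 counts.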

How the data were processed

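BMSC cultures (3 Con, 3 Ni) were measured by RNA-seq, and the authors deposited raw counts per gene and FPKM values with a gene annotation on GRCm38. The aligner, the counter and its strand setting are not given in the sources used here. FPKM was used only for levels between genes and as an alternative.

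Counts of all 54532 genes were filtered with filterByExpr, which kept 14624 genes and all 81 members, scaled by TMM and fitted with the quasi-likelihood test of edgeR 4.0.16 (R 4.3.3, robust, prior count 0.125, Benjamini-Hochberg adjustment). Overlap of groups was judged on log2 CPM (prior count 2). Alternatives used DESeq2 1.42.0, limma 3.58.1 on log2(FPKM + 1) and log2(FPKM + 0.1), other scalings and filters, a gene length trend, a replicate block, and each library left out. The tests were first tested on simulated data. All 81 members are in GENCODE M21, 78 with the same coordinates, and exon overlaps and transcripts come from it, while distances between genes come from the deposited annotation. Libraries of a group differed by more than sampling noise (chi-square per degree of freedom from 4.59 to 48.3), so no library was a duplicate.

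Members and lists were chosen with earlier results of these data known. Named members are the 10 with the highest mean CPM and those at an unadjusted p under 0.05 whose groups do not overlap. Those on 4 lists of known lincRNAs are named too, which makes 22 members. Members at the limit of the rule are given by their counts only and are not among the 22. Others are marked in the text.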

Additional observations from a re-analysis of the deposited data

How the results depend on the processing

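No member passed an adjusted p of 0.05 in edgeR with DESeq2 size factors, library totals, the length trend removed, at least 10 counts in every library, or limma on FPKM. The number for all genes was 0 as well. For members it was 2 with DESeq2's Wald test and 4 with no filter on low counts (3.97% of 25876 genes called; Gm17705, 1700003M07Rik, Gm1720 and Gm44751). With a replicate block it was 1 (Gm14275), with or without the length trend (282 genes of the table without the trend, 315 with it). Over all genes the tests called 264 with DESeq2, 1027 with no filter, 2284 without Con replicate 3 and 15 without Ni replicate 2. Deviations of same-numbered Con and Ni libraries correlated at 0.0104, 0.256 and 0.138 for replicates 1 to 3. These values do not settle whether the libraries are paired by number. With each library left out the number ranged from 0 to 12, the latter without Con replicate 3. Members higher at an unadjusted p under 0.05 numbered 2 with no filter and 2 with a replicate block, with or without the length trend, and from 0 to 4 with a library left out. Members lower numbered 5 in limma with either pseudocount, and from 2 (without Con replicate 2) to 13 (without Con replicate 3), with 4 without Con replicate 1, 3 without Ni replicate 1 and 4 without Ni replicate 3. The median log2 fold change ranged from -0.075 to -0.033 with a library left out, the lowest without Ni replicate 3. The cause of these moves was not tested.

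Of 352 named member and alternative pairs, 335 kept their direction and side of the threshold, 6 passed it and 11 turned direction. The last belonged to 8 members. With single libraries left out, the log2 fold change ranged from -0.241 to 0.023 for Malat1 (positive without Ni replicate 1), from -0.007 to 0.087 for 1810058I24Rik (negative without Ni replicate 1) and from -0.046 to 0.088 for Tmem250-ps (negative without Con replicate 1, at -0.034, and Ni replicate 2). It ranged from -0.234 to 0.184 for Snhg20 (negative without Con replicate 1, at -0.041, and Ni replicate 2), and was -0.004 with the length trend removed and a replicate block. It ranged from -0.215 to 0.153 for Snhg6 and from -0.528 to 0.045 for Gm14005 (both positive without Con replicate 3), from -0.037 to 0.268 for Ftx (negative without Con replicate 2) and from -0.020 to 0.450 for Bvht (negative without Ni replicate 3). Without changing sign it ranged from -0.718 to -0.243 for Epb41l4aos, from -0.303 to -0.044 for Gm36161 (nearest 0 without Ni replicate 2), from -0.312 to -0.052 for AU020206 (without Con replicate 1) and from -0.287 to -0.025 for Snhg12 (without Con replicate 2).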
